A study of Mus musculus with 18 samples.

Results

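Wild-type mouse embryonic stem (ES) cells and wild-type mouse embryonic fibroblasts were compared gene by gene, as the starting point of a study in which Trim28 was then removed from both cell types. The deposited tables of the ES cells and of the fibroblasts were joined on the RefSeq transcript, 1 transcript was kept per gene symbol, and a gene counted as measured if it reached 1 RPKM in at least 1 of the libraries. RPKM scales the reads on a transcript by transcript length and by library depth. Of 17843 joined symbols, 12214 met this rule. 9239 of them reached 1 RPKM in both libraries, 1595 in the ES cells only and 1380 in the fibroblasts only.

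The ES cells were the line ES3, labelled wild type for KAP1 (TRIM28), of strain C57BL/6, and were grown for 4 days. The fibroblasts, abbreviated MEF in the labels, were also wild type and C57BL/6, and were grown for 5 days. The growth protocol given for both describes serum, leukaemia inhibitory factor (LIF) and gelatin-coated plates, with no feeder cells named. Duplicates were pooled before RNA extraction, so each cell type is 1 library. There is no replicate error, no difference below has a test, and a gene is called by the size of its difference alone.

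ES cells are the cultured counterpart of the inner cell mass of the blastocyst and can form all tissues of the embryo. They depend on a network of transcription factors around OCT4, SOX2 and NANOG, on LIF, and on adhesion through E-cadherin. Embryonic fibroblasts are mesenchymal cells that secrete and contract an extracellular matrix, carry a memory of their position in the body in their Hox genes, and do not express that network. TRIM28 is recruited to DNA by zinc finger proteins and brings in the enzymes of the repressive histone mark H3K9me3.

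The microRNA cluster miR-290 to miR-295 gives the contrast of the cell types in sequence form, because most of its members carry the same or nearly the same heptamer for recognising targets. The cluster is the most abundant microRNA family of mouse ES cells in general. Its 7 hairpins lie at chr7:3218627-3220842 (mm9, plus strand). Mature sequences below are those of RefSeq (GRCm38.p6), with the seed, bases 2 to 8, in capitals. miR-302b belongs to a second cluster of early embryonic cells, and miR-196a is encoded among the Hox genes.
miR-291a-3p: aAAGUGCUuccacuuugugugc
miR-294-3p: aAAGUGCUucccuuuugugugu
miR-295-3p: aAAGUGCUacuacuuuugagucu
miR-302b-3p: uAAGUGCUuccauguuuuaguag
miR-290a-3p: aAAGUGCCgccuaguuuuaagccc
miR-291b-3p: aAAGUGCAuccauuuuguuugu
miR-293-3p: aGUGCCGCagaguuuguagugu
miR-196a-5p: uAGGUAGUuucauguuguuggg
The first 4 share the seed AAGUGCU, miR-290a and miR-291b differ from it in the last seed base, and miR-293 has another seed. All 7 hairpins of the cluster were above 0 in ES3 cells and all 7 were listed at 0 in MEFs. Among all 73 microRNA precursor genes, 33 were listed at 0 in ES3 cells and 45 in MEFs. The 7 hairpins were measured through ES3 cells alone, which fixed their direction. Mir295 stood at 15.6 RPKM, Mir291b at 12.7, Mir293 at 6.26, Mir291a at 5.64, Mir294 at 4.13, Mir292 at 2.82 and Mir290a at 1.86 RPKM in ES3 cells. The hairpin of miR-302b stood at 1.04 RPKM in ES3 cells and was listed at 0 in MEFs. Mir196a-1 had the opposite pattern, with 0.755 against 11.5 RPKM. These are mRNA-seq values over the hairpin, so they describe the precursor and not the mature microRNA.

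Values were compared as percentile ranks, from 0 for the lowest to 100 for the highest of the 12214 genes in a library, since the tables may have been scaled separately. A gene was called ES-high or MEF-high when its ranks differed by 25 percentile points or more. By this rule 1709 genes (14.0%) were ES-high, 1798 (14.7%) were MEF-high and 8707 lay within 25 points. Among the 9239 genes at 1 RPKM or more in both libraries, 1052 (11.4%) were ES-high and 1045 (11.3%) MEF-high. These 4 shares are the background for every list below. With 1 RPKM added before taking log2 and no centring, 1115 genes were at least 4-fold higher in ES3 cells and 1235 in MEFs. The median log2 ratio was 0.28, and centring on it gave 824 and 1544, so the share of ES-high calls was 48.7% by rank and 34.8% after centring. The rank correlation of the libraries across genes was 0.562. The same genes had a rank correlation of 0.914 between wild-type and Trim28-knockout ES3 cells and of 0.964 between wild-type and knockout MEFs. In those pairs 5.11% and 0.614% of the genes differed by 25 points or more. The knockouts were made with a Cre induced by 4-OHT (4-hydroxytamoxifen), 4 days earlier in ES3 cells and 5 days earlier in MEFs. They are not replicates, and these figures only give a scale for the differences between cell types.

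**Figure D1:**
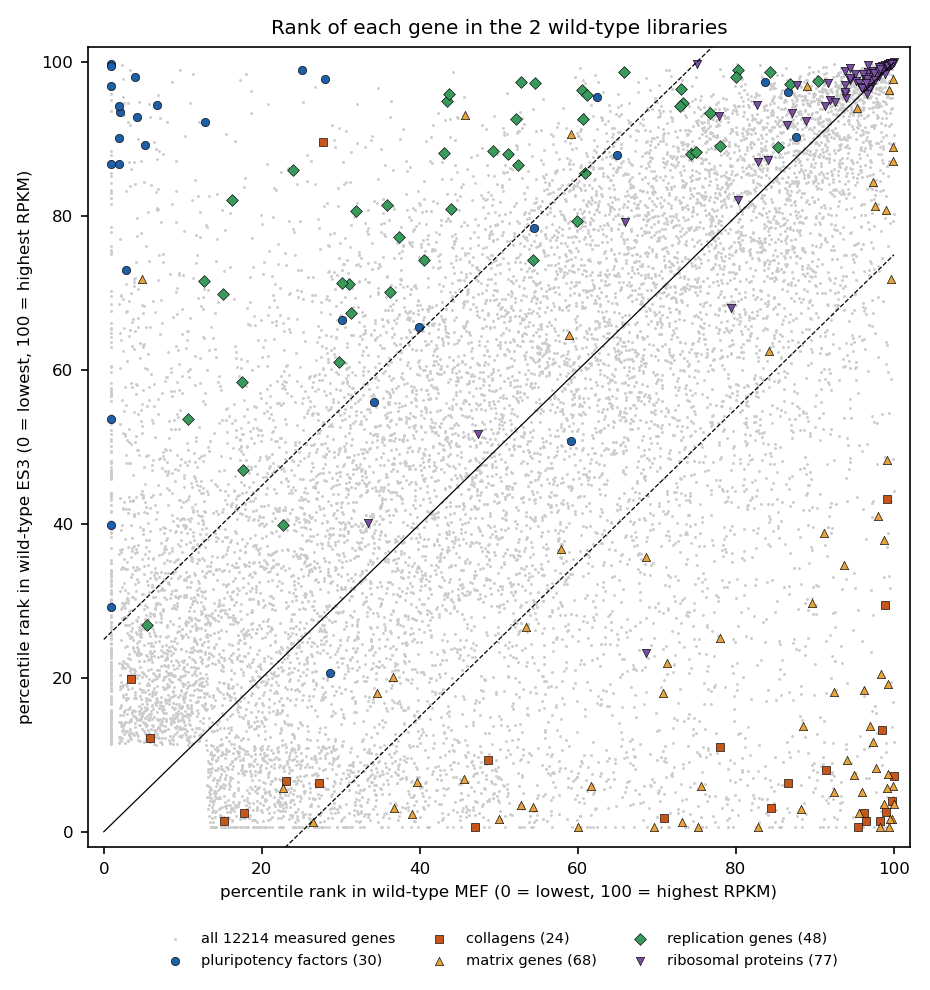
Percentile rank of each measured gene in wild-type MEFs (x axis) and wild-type ES3 cells (y axis), with 5 gene lists marked and dashed lines at 25 points. Most pluripotency factors lie at the upper left, most collagens and matrix genes at the lower right, and ribosomal protein genes at the top of both libraries.

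Ranks saturate at the top. A level of 100 RPKM lay at percentile 95.2 in ES3 cells and 95.6 in MEFs, so all 267 genes at 100 RPKM or more in both libraries were within 5 points of each other by construction. Of the genes within 25 points, 188 still differed 4-fold or more after 1 RPKM was added to both values, 99 toward ES3 cells and 89 toward MEFs. Low genes that differ 4-fold only without the added 1 RPKM are not in this count. Trim28 (NM_011588; mm9 chromosome 7, 13609501 to 13616384) was among them: it stood at 1051 RPKM in ES3 cells and 62.8 RPKM in MEFs, a difference of 7.44 points. Both RPKM values are therefore given for most genes named. The genes nearest the threshold were Zfp652 (25.01 points) just inside and Xpo4 (24.99 points) just outside on the ES side, and Ece1 (−25.01 points) and Acsl5 (−24.998 points) on the MEF side.

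For each cell type 10 markers were read, chosen with earlier results of these data known, and these matched both labels. The ES markers were Pou5f1, Sox2, Nanog, Esrrb, Zfp42, Dppa5a, Tdgf1, Fgf4, Utf1 and Dnmt3l. The fibroblast markers were Col1a1, Col1a2, Col3a1, Pdgfrb, Thy1, Twist2, Prrx1, Fn1, Postn and Vim. They leave out less distinct genes, such as Klf4 (54.7 RPKM in ES3 cells against 38.2 RPKM in MEFs) and the matrix gene Lum (0.0371 against 0.532 RPKM). All 10 ES markers were at 40.7 RPKM or more in ES3 cells, whereas in MEFs 5 were listed at 0 and the highest, Nanog, stood at 0.967 RPKM. All 10 fibroblast markers were at 24.3 RPKM or more in MEFs; in ES3 cells 2 were listed at 0 and 3 reached 1 RPKM, namely Fn1 (177), Vim (51.1) and Thy1 (1.63 RPKM). Genes of other cell types were also present. Of 25 macrophage and leukocyte markers, 14 reached 1 RPKM in MEFs and 3 in ES3 cells. The lysozyme gene Lyz2 stood at 0 against 75.6 RPKM, the complement gene C1qa at 0.0712 against 16.7 RPKM and the CSF1 receptor gene Csf1r at 0 against 5.90 RPKM, while Ptprc, the pan-leukocyte surface phosphatase, was under 1 RPKM in both. The summed level of this list was similar, 176.4 RPKM in ES3 cells and 164.2 RPKM in MEFs, with Laptm5 alone at 149.6 RPKM in ES3 cells. The part of such cells in any difference below was not tested. In bulk RNA, fewer cells of a type and less RNA per cell cannot be told apart.

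Among the 15 widest differences toward ES3 cells were several genes of the pluripotency network. Pou5f1 (NM_013633; mm9 chromosome 17, 35643007 to 35647714), which encodes OCT4, stood at 820.2 RPKM in ES3 cells and was listed at 0 in MEFs, a difference of 98.8 points. Utf1, a chromatin factor of ES cells, stood at 462 RPKM and was also listed at 0 in MEFs. Dppa5a, an RNA-binding protein, followed with 713 against 0.0114 RPKM. The other genes among the first 15 were Lin28a, which blocks maturation of let-7 microRNAs (139 against 0 RPKM), the orphan receptor gene Nr0b1 (137 against 0 RPKM), the secreted phospholipase gene Pla2g1b (132 against 0 RPKM), Dnmt3l (286 against 0.0331 RPKM), L1td1 (181 against 0.0125 RPKM), Tdgf1 (114 against 0 RPKM), Fgf4 (98.6 against 0 RPKM), Sox2 (195 against 0.0599 RPKM), the threonine dehydrogenase gene Tdh (106 against 0.0129 RPKM), Tcf15 (78.1 against 0 RPKM), Zscan10 (86.6 against 0.00227 RPKM) and the surface glycoprotein gene Gpa33 (92.2 against 0.0160 RPKM). The 15 differences ran from 92.2 to 98.8 points.

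Among the 15 widest differences toward MEFs were several genes of secreted matrix proteins. Postn (mm9 chromosome 3, 54165031 to 54194961), or periostin, was listed at 0 in ES3 cells and stood at 421 RPKM in MEFs, a difference of −98.7 points. Inhba, the beta A subunit of activin, was listed at 0 against 322 RPKM, and Cav1, the coat protein of caveolae, at 0 against 258 RPKM. Tenascin C (Tnc) stood at 0.0225 against 797 RPKM and the collagen crosslinking enzyme gene Lox at 0.0214 against 524 RPKM. The others of the 15 were Tm4sf1 (0 against 224 RPKM), Ccdc80 (0 against 195 RPKM), the caveola gene Sdpr (0 against 152 RPKM), Col12a1 (0.0132 against 193 RPKM), Col5a2 (0.0582 against 304 RPKM), biglycan (Bgn, 0.103 against 2096 RPKM), the protease gene Prss23 (0.0955 against 450.1 RPKM), Col1a2 (0.135 against 786 RPKM), Galntl4 (0.0594 against 200.4 RPKM) and the calcium-binding protein gene S100a4 (0.150 against 945 RPKM). Their differences ran from −95.5 to −98.7 points.

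In ES3 cells the 10 highest genes include Rpl41 (2516 RPKM), Gnb2l1 (2255), Rpl8 (2106), Hsp90ab1 (2082), Hspa8 (2011), Eef2 (1998), Actb (1828), Rplp1 (1751) and Pkm2 (1641). In MEFs the 10 highest were the smooth-muscle actin gene Acta2 (4321 RPKM), Tagln (3592), Lgals1 (2957), Vim (2824), Actb (2385), Bgn (2096), S100a6 (2078), Col1a1 (2037), Rpl41 (1948) and Fn1 (1711). Actb and Rpl41 were in both sets. The 100 highest genes of each library held 23.9% of all RPKM in ES3 cells and 26.9% in MEFs, and 37 genes were in both sets.

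Of 30 pluripotency transcription factors, 22 were ES-high, none MEF-high and 8 within 25 points. Of the 13 at 1 RPKM or more in both libraries, 5 were ES-high. The median difference of all 30 was 53.7 points when all 17843 symbols were ranked without a filter, against 0.157 points over all symbols. Medians given for other lists are of this kind. Those stated for genes at 1 RPKM or more in both are the exception, and use the ranks among the 12214 measured genes. Besides Pou5f1 and Sox2, Esrrb, an orphan nuclear receptor of the network, stood at 77.8 against 0.00437 RPKM, Zfp42 (REX1) at 40.7 against 0 RPKM, Tcfcp2l1 at 70.9 against 0.0705 RPKM and Nanog at 66.1 against 0.967 RPKM. Several members were not specific to ES3 cells. The reprogramming factors Klf4 (54.7 against 38.2 RPKM, 2.72 points) and Myc (7.59 against 9.62 RPKM, −8.35 points) were within 25 points, as were Rarg, Tcf7l1, Trp53 and Nacc1. Among the Myc paralogs the difference lay in Mycn, at 87.9 against 0.242 RPKM, while Mycl1 stood at 5.11 against 3.995 RPKM. Mycn made up 87.4% of the summed Myc, Mycn and Mycl1 level in ES3 cells, which was 100.6 RPKM. In MEFs the sum was 13.9 RPKM, and Myc made up 69.4% of it.

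A list of 29 further genes known from ES and germ cells, many of them RNA-binding, had 28 ES-high members and a median of 67.4 points. Of the 4 at 1 RPKM or more in both libraries 3 were ES-high. The other members were measured through ES3 cells alone, which fixed their direction. The X-linked Ras gene Eras stood at 36.7 against 0 RPKM, the maternal-effect gene Ooep at 48.1 against 0.241 RPKM, Aire at 33.3 against 0 RPKM and the ubiquitin ligase gene Trim71 at 45.3 against 0.327 RPKM. Osteopontin (Spp1) was the exception, abundant in both libraries with 159 against 658 RPKM.

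**Figure D2:**
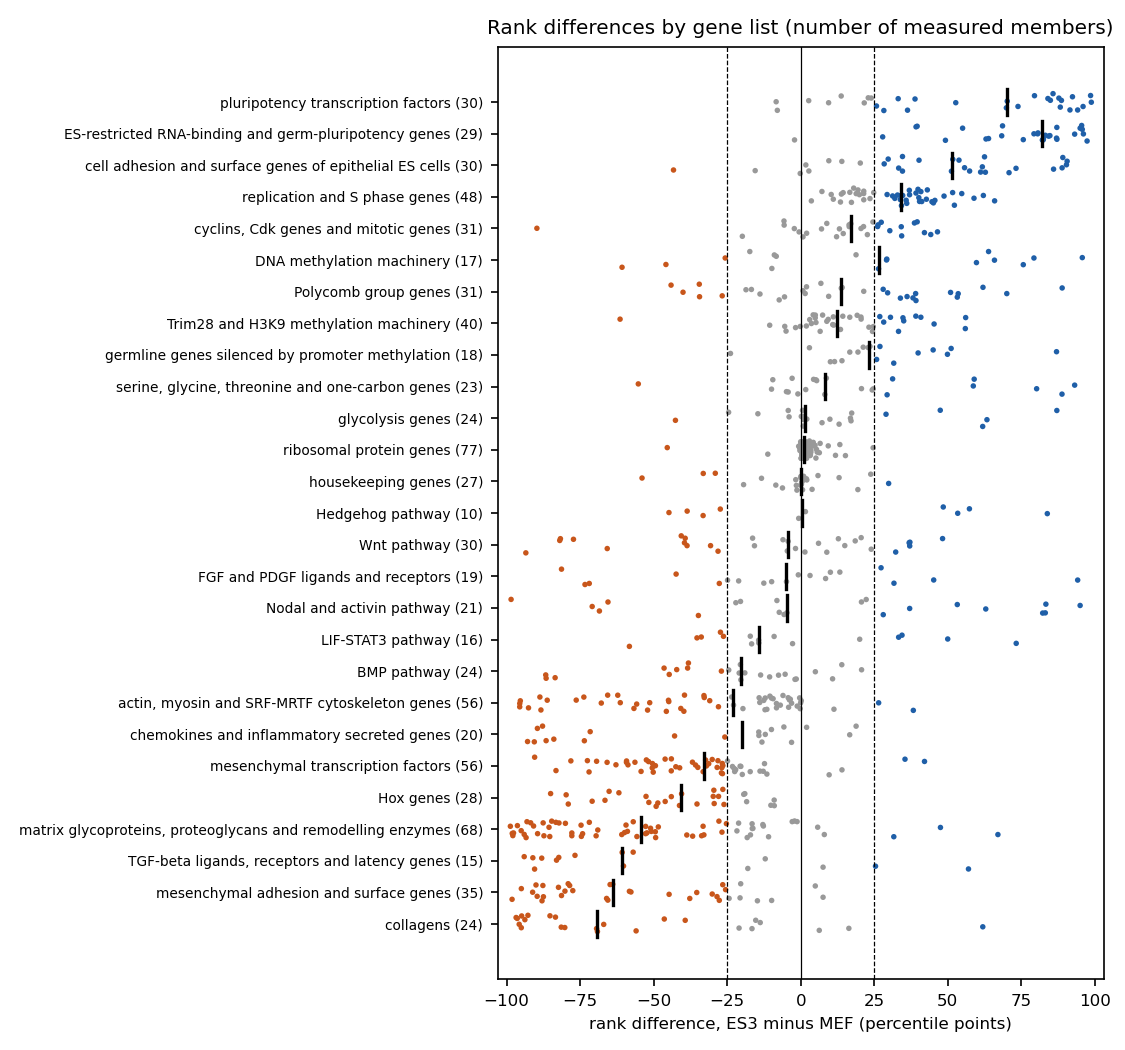
Rank difference of each measured list member, ES3 minus MEF, in percentile points (x axis), by gene list (y axis, number of measured members in parentheses). Short vertical bars mark medians of the plotted members, dashed lines the 25 points at which a gene is called, blue ES-high and orange MEF-high genes; genes under 1 RPKM in both libraries are not plotted.

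LIF signals through the receptor pair LIFR and gp130 to JAK kinases and STAT3, which sustain self-renewal of mouse ES cells. The LIF receptor gene Lifr was ES-high (6.18 against 0.796 RPKM, 34.4 points), whereas the shared receptor gene Il6st (15.2 against 31.6 RPKM, −16.7 points) and Stat3 (10.05 against 13.2 RPKM, −9.05 points) were within 25 points. Jak1 was MEF-high (8.67 against 39.7 RPKM, −33.8 points) and Tyk2 ES-high (23.6 against 5.33 RPKM, 33.3 points). The oncostatin M receptor gene Osmr, whose product also pairs with gp130, was MEF-high (0.0319 against 10.04 RPKM, −58.2 points). Of the STAT3 target genes, Socs3 (52.8 against 1.32 RPKM, 73.3 points) and Pim3 (106 against 5.65 RPKM, 49.98 points) were ES-high and Pim1 was within 25 points (57.6 against 15.6 RPKM, 20.1 points). Over the 16 genes of the pathway 4 were ES-high and 5 MEF-high, with a median of −11.6 points; of the 10 at 1 RPKM or more in both libraries 3 were ES-high and 2 MEF-high.

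Nodal and activin act through the same receptors and SMAD2 and SMAD3. Of 23 pathway genes in the tables, 21 were measured, 8 of them ES-high and 5 MEF-high, with a median of −2.74 points. Of the 12 at 1 RPKM or more in both libraries, 1 was ES-high and 3 were MEF-high. The ES-high members were the ligand gene Nodal (34.98 against 0 RPKM), Gdf3 (41.7 against 0.0548 RPKM), the extracellular inhibitors Lefty1 (8.67 against 0 RPKM) and Lefty2 (5.06 against 0.0768 RPKM), the co-receptor gene Tdgf1, the receptor genes Acvr2b (18.6 against 0.538 RPKM) and Acvr1b (15.1 against 4.48 RPKM), and the nuclear partner Foxh1 (32.8 against 0 RPKM). The receptor gene Acvr2a (1.32 against 4.14 RPKM, −22.1 points) and the ligand-processing protease gene Pcsk6 (13.5 against 5.11 RPKM, 22.3 points) were within 25 points, and Cfc1 and Acvr1c were under 1 RPKM in both. The activin subunit gene Inhba was MEF-high, as were the activin-binding follistatins Fst (1.52 against 35.9 RPKM) and Fstl3 (0.651 against 23.7 RPKM) and Furin (1.74 against 34.4 RPKM), a protease that processes ligand precursors. Smad2 (17.3 against 18.9 RPKM, −4.69 points) and Smad4 (7.37 against 8.36 RPKM, −5.67 points) lay within 25 points, and Smad3 was MEF-high (4.75 against 18.4 RPKM, −34.8 points).

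TGF-beta genes leaned to MEFs, with 10 of 15 MEF-high, 2 ES-high and a median of −51.8 points. Of the 7 at 1 RPKM or more in both, 3 were MEF-high and 2 ES-high. All 3 ligands were MEF-high, Tgfb1 with 2.83 against 49.1 RPKM, Tgfb2 with 0.113 against 10.3 RPKM and Tgfb3 with 0.0226 against 65.3 RPKM. The signalling receptor gene Tgfbr2 stood at 0.269 against 12.7 RPKM, while Tgfbr1 was within 25 points (2.58 against 5.66 RPKM, −17.99 points). Latent TGF-beta binding proteins, which store the ligand in the matrix, divided: Ltbp1 (0.600 against 51.7 RPKM), Ltbp2 (0.145 against 61.7 RPKM) and Ltbp3 (1.22 against 54.6 RPKM) were MEF-high and Ltbp4 ES-high (46.4 against 3.09 RPKM). Of the TGF-beta-responsive genes, Thbs1 (0.279 against 1644 RPKM) was MEF-high and Tgfbi was ES-high (7.22 against 2.12 RPKM, 25.4 points).

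In the BMP pathway none of 30 genes was ES-high, 9 were MEF-high and 6 were under 1 RPKM in both; of the 14 at 1 RPKM or more in both, 4 were MEF-high. Bmp4 lay within 25 points (8.15 against 4.29 RPKM, 13.97 points). The secreted BMP antagonist Grem1 (0.0470 against 43.3 RPKM) and the procollagen protease gene Bmp1 (0.360 against 49.2 RPKM) were MEF-high, as were the receptor genes Bmpr2 (2.04 against 12.2 RPKM) and Acvrl1 (1.04 against 9.35 RPKM). The target genes Id1 (77.98 against 92.1 RPKM, −1.51 points), Id2 (19.5 against 18.8 RPKM, −1.95 points) and Id3 (24.6 against 211 RPKM, −20.4 points) were within 25 points.

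FGF signalling split by ligand. Fgf4, the autocrine ligand of ES cells, stood at 98.6 RPKM in ES3 cells and at 0 in MEFs, and Fgf17 at 6.71 against 0.0218 RPKM. Fgf7, a ligand that mesenchyme sends to epithelium, was listed at 0 in ES3 cells and stood at 17.7 RPKM in MEFs. Fgfr1 was just under the threshold (9.61 against 26.5 RPKM, −24.9 points). Of the feedback and target genes of the pathway, Etv5 (122 against 14.4 RPKM, 27.3 points) and Spry4 (66.8 against 10.2 RPKM, 31.7 points) were ES-high, Spry1 was MEF-high (2.51 against 14.6 RPKM, −42.4 points), and Dusp6, Spry2 and Etv4 were within 25 points. The PDGF receptor gene Pdgfrb (0.0498 against 29.9 RPKM) and the ligand gene Pdgfd (0.0429 against 17.9 RPKM) were MEF-high, and Pdgfa was within 25 points (37.7 against 20.7 RPKM, 8.46 points). Of 26 listed genes 19 were measured, 4 of them ES-high and 5 MEF-high. Of the 10 at 1 RPKM or more in both, 2 were ES-high and 1 MEF-high.

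Of 40 Wnt genes, 5 were ES-high, 11 MEF-high and 10 under 1 RPKM in both, with a median of −3.62 points. Among the 12 at 1 RPKM or more in both libraries, 3 were ES-high and 2 MEF-high, and the median had the other sign, 7.12 points. The ligand gene Wnt5a (0.883 against 39.1 RPKM), the secreted antagonists Dkk2 (0.00317 against 28.2 RPKM) and Dkk3 (0.895 against 19.99 RPKM) and the matricellular genes Wisp1 (0.0613 against 111 RPKM) and Wisp2 (0 against 27.5 RPKM) were MEF-high. The nuclear effectors Tcf7 (10.4 against 0.707 RPKM) and Lef1 (12.99 against 2.51 RPKM), the receptors Fzd5 (10.8 against 1.959 RPKM) and Fzd10 (3.90 against 0.0408 RPKM) and the antagonist Sfrp1 (26.9 against 5.03 RPKM) were ES-high. Beta-catenin (Ctnnb1) was at 139 against 101 RPKM, 1.43 points. Of 14 Hedgehog genes, 4 were called on each side, 2 on each side among the 6 at 1 RPKM or more in both, and 4 were under 1 RPKM in both, the 3 ligand genes among them. The target genes Gli1 (41.6 against 0.0302 RPKM) and Ptch1 (29.8 against 2.67 RPKM) and the effector Gli2 (19.17 against 2.17 RPKM) were ES-high. The signal transducer Smo (5.52 against 26.4 RPKM), the co-receptors Boc (0.278 against 6.85 RPKM) and Gas1 (0.807 against 5.11 RPKM) and the repressor-forming Gli3 (2.13 against 6.97 RPKM) were MEF-high.

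**Figure D3:**
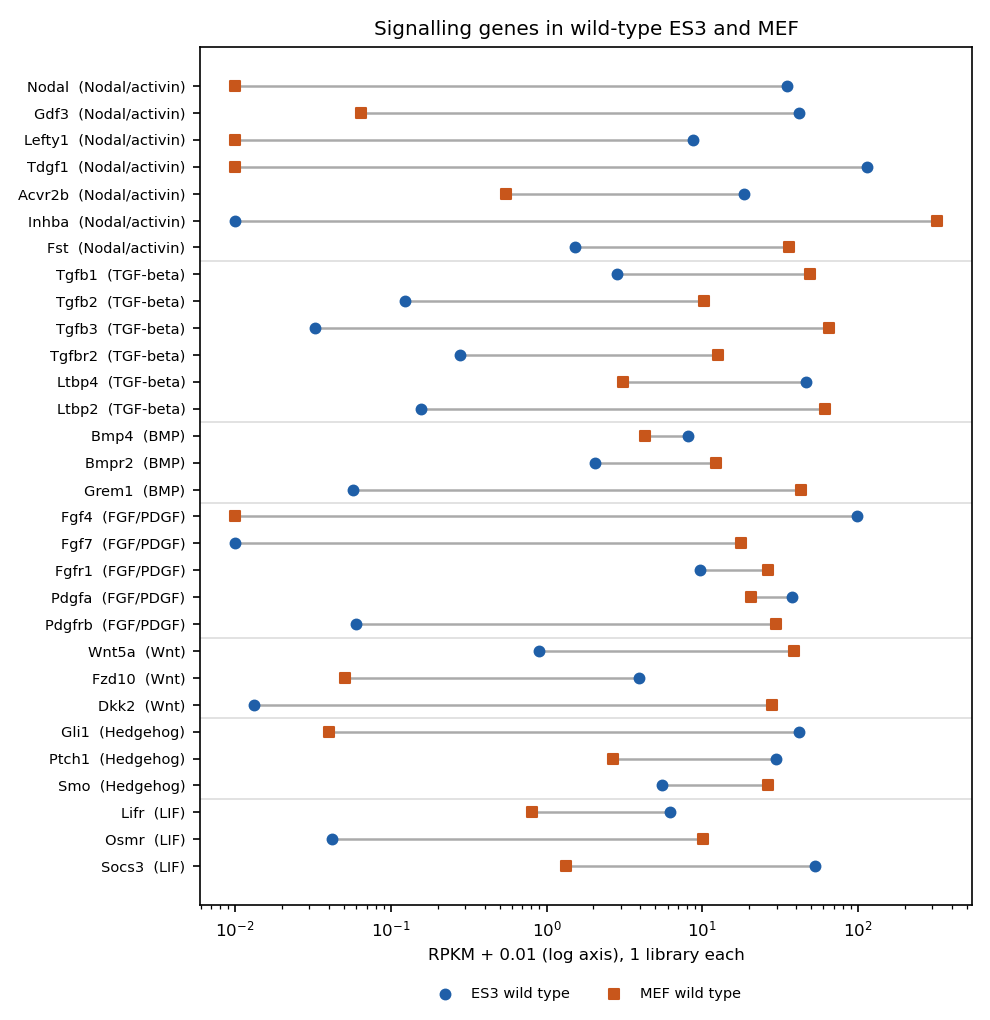
RPKM + 0.01 (x axis, log scale) of ligand, receptor and pathway genes (y axis, grouped by pathway) in 1 wild-type ES3 library (circles) and 1 wild-type MEF library (squares). Points at 0.01 are genes listed at 0; Nodal, Gdf3 and Fgf4 lie to the right in ES3 cells, and Inhba, Tgfb3 and Fgf7 in MEFs.

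Surface and junction genes showed an epithelial set in ES3 cells and a mesenchymal set in MEFs. Of 34 adhesion and surface genes listed for epithelial ES cells, 22 were ES-high and 1 MEF-high, with a median of 35.9 points. Of the 10 at 1 RPKM or more in both, 4 were ES-high and 1 MEF-high. The list is wider than epithelial genes: Pecam1, which is also on the endothelial list, Kit, Alpl and Icam1 were among the 22. E-cadherin (Cdh1) stood at 93.4 against 0.0801 RPKM and Epcam at 73.3 against 0.0179 RPKM. The tight-junction claudins Cldn4 (157 against 0.443 RPKM) and Cldn6 (41.3 against 0 RPKM), the epithelial splicing factor Esrp1 (13.2 against 0.00476 RPKM) and the epithelial transcription factor Grhl2 (12.8 against 0.00744 RPKM) had the same direction. The keratin gene Krt19 was the MEF-high member (3.32 against 19.17 RPKM), and the junction genes Jup (88.5 against 65.3 RPKM, 1.74 points) and Pkp2 (16.5 against 14.9 RPKM, −0.172 points) were within 25 points. Of 36 mesenchymal surface genes 28 were MEF-high and none ES-high, with 12 of the 18 at 1 RPKM or more in both. N-cadherin (Cdh2) stood at 1.09 against 49.3 RPKM and Cdh11 at 1.29 against 161 RPKM. The summed level of Cdh1, Cdh2, Cdh3 and Cdh11 was 92.7% Cdh1 in ES3 cells, and 73.7% Cdh11 with 22.6% Cdh2 in MEFs. The fibroblast surface genes Thy1 (1.63 against 589 RPKM), Cd44 (0.0204 against 54.7 RPKM), Vcam1 (0 against 51.1 RPKM), Cd248 (0.0887 against 209 RPKM) and Ly6a (0.183 against 106 RPKM) were also MEF-high, as was the receptor tyrosine kinase gene Axl (1.01 against 299.8 RPKM).

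Of 41 collagen genes 24 were measured; 17 were MEF-high, 1 was ES-high, with 3 and 1 of the 4 at 1 RPKM or more in both, and the unfiltered median was −28.5 points. Together the 41 made up 0.0220% of all RPKM in ES3 cells and 1.51% in MEFs. In MEFs the chains of fibrillar collagen I had the highest RPKM, with Col1a1 at 0.425 against 2037 RPKM and Col1a2 at 0.135 against 786 RPKM. Other fibrillar collagen genes that were MEF-high included Col5a1 (1.13 against 223 RPKM) and Col3a1 (0.0138 against 117 RPKM). Basement membrane collagen was also higher in MEFs, with Col4a1 at 5.52 against 347 RPKM and Col4a2 at 2.83 against 277 RPKM. Col18a1, a basement membrane collagen that carries endostatin, was the ES-high member (52.2 against 2.59 RPKM).

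Other matrix and remodelling genes made up 0.300% of RPKM in ES3 cells and 4.94% in MEFs. Of 70 genes 50 were MEF-high and 3 ES-high, with a median of −41.3 points, and of the 35 at 1 RPKM or more in both 19 were MEF-high and 2 ES-high. Fibulin 2 (Fbln2, 1.61 against 403 RPKM), fibrillin 1 (Fbn1, 0.717 against 78.3 RPKM), the protease inhibitor Timp2 (0.466 against 415 RPKM), the membrane protease Mmp14 (4.31 against 257 RPKM) and the collagen chaperone Serpinh1 (6.82 against 330.2 RPKM) were MEF-high. Fibronectin (Fn1) differed by −2.10 points but stood at 177 against 1711 RPKM. The 3 ES-high genes were basement membrane components: laminin chains Lama1 (18.1 against 0.101 RPKM) and Lama5 (73.8 against 5.68 RPKM) and nidogen 2 (Nid2, 57.01 against 9.59 RPKM). Among laminin alpha chains, Lama5 and Lama1 made up 76.97% and 18.9% of the summed level in ES3 cells, and Lama4 and Lama5 made up 44.2% and 33.7% in MEFs.

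A cytoskeleton list took 1.40% of RPKM in ES3 cells and 10.5% in MEFs. Besides genes of actin, myosin and their regulators it held vimentin, nestin, lamins, tubulins, annexins, galectins and S100a6 with its relatives. The shares are thus not those of actin and myosin alone: Lgals1 (2957 RPKM), Vim (2824) and S100a6 (2078) were among its highest members in MEFs. Of 57 genes 27 were MEF-high and 2 ES-high, with a median of −15.6 points; of the 51 at 1 RPKM or more in both, 22 were MEF-high. Smooth-muscle actin (Acta2) stood at 5.74 against 4321 RPKM, transgelin (Tagln) at 1.02 against 3592 RPKM, calponin 1 (Cnn1) at 0.775 against 207 RPKM and the myosin light chain gene Myl9 at 1.15 against 827 RPKM. The nonmuscle actins were not called, with Actb at 1828 against 2385 RPKM and Actg1 at 292 against 467 RPKM. The 2 ES-high members encode B-type lamins of the nuclear envelope, Lmnb1 (204 against 16.1 RPKM) and Lmnb2 (45.3 against 6.58 RPKM), against Lmna at 13.8 against 128 RPKM. Lmna made up 5.26% of the 3 lamins in ES3 cells and 84.9% in MEFs.

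Many of these genes are known targets of serum response factor (SRF), which binds the CArG box. The list was built in part from such targets, and promoters are shown to place the box beside the values. RefSeq promoters (GRCm38.p6, 250 bases before to 50 after the start) were available for 46 of the 56 measured members. Of these 8 (17.4%) held a CArG box, which reads as the same motif on both strands, against 425 of 27025 promoters of all genes (1.57%). Of the 24 MEF-high members with a promoter 6 held it. Windows upstream of the start are printed in transcript direction with the box in capitals.
Myl9, chr2:156775278-156775337, plus strand: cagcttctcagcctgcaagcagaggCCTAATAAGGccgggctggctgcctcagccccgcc
Cnn2, chr10:79988519-79988578, plus strand: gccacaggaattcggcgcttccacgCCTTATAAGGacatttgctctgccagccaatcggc
Vcl, chr14:20929148-20929205, plus strand: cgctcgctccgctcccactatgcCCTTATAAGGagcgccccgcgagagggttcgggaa
Lima1, chr15:99820162-99820221, minus strand: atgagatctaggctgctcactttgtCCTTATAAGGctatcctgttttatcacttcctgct
Actc1, chr2:114052888-114052947, minus strand: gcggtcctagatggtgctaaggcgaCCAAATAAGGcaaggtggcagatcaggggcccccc
Actg1, chr11:120348551-120348610, minus strand: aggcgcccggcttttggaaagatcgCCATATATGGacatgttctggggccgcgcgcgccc
The box of Vcl and that of Lima1 have the same 10 letters as that of Cnn2. The first 5 genes were MEF-high: Myl9 (−86.2 points), Cnn2 (10.4 against 610.4 RPKM), vinculin (Vcl, 13.2 against 156 RPKM), Lima1 (7.61 against 51.1 RPKM) and cardiac actin (Actc1, 2.27 against 9.14 RPKM). The sixth MEF-high gene, Anxa5 (5.45 against 619 RPKM), held its box 25 bases after the start. Actg1 and Srf itself (20.8 against 36.2 RPKM, −12.1 points), whose promoter holds 2 boxes, were within 25 points. A match describes the letters in this window and not binding.

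Of 73 transcription factors listed for mesenchyme, some of them general factors, 39 were MEF-high, 2 ES-high and 17 under 1 RPKM in both. The median was −25.2 points. Of the 22 at 1 RPKM or more in both, 15 were MEF-high and 2 ES-high. These 15 included Twist1, Snai1 and Zeb1, but also general factors such as Jun, Fos, Fosl1, Cebpb, Klf6, Nfic, Tead1 and Tead3. The next 5 genes were measured through MEFs alone, which fixed their direction. Twist2 was listed at 0 in ES3 cells and stood at 53.98 RPKM in MEFs. Prrx1 (0.0392 against 24.3 RPKM), Prrx2 (0.670 against 61.4 RPKM), Tbx15 (0.172 against 20.1 RPKM) and the E-cadherin repressor Snai2 (0.366 against 23.1 RPKM) were also MEF-high. The architectural protein gene Hmga2 was MEF-high (4.96 against 139 RPKM, −56.4 points) while its paralog Hmga1 was within 25 points (85.2 against 24.3 RPKM, 14.03 points). Klf9 (35.9 against 5.04 RPKM) and Six4 (7.99 against 1.32 RPKM) were the ES-high members.

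No Hox gene reached 1 RPKM in ES3 cells. Of 37 in the tables, 28 reached it in MEFs and 22 of these were MEF-high; since each was measured only through the MEF library, the direction was fixed by the rule. The B and C clusters carried most of the MEF level, with sums of 97.7 and 96.3 RPKM against 25.1 for the A cluster and 17.1 for the D cluster. Hoxc6 (33.4 RPKM), Hoxb9 (32.9) and Hoxc8 (30.1) were the highest. Among the most 5′ genes, Hoxa13 and Hoxc13 were under 1 RPKM in both libraries and Hoxd13 stood at 0.248 against 3.68 RPKM.

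**Figure D4:**
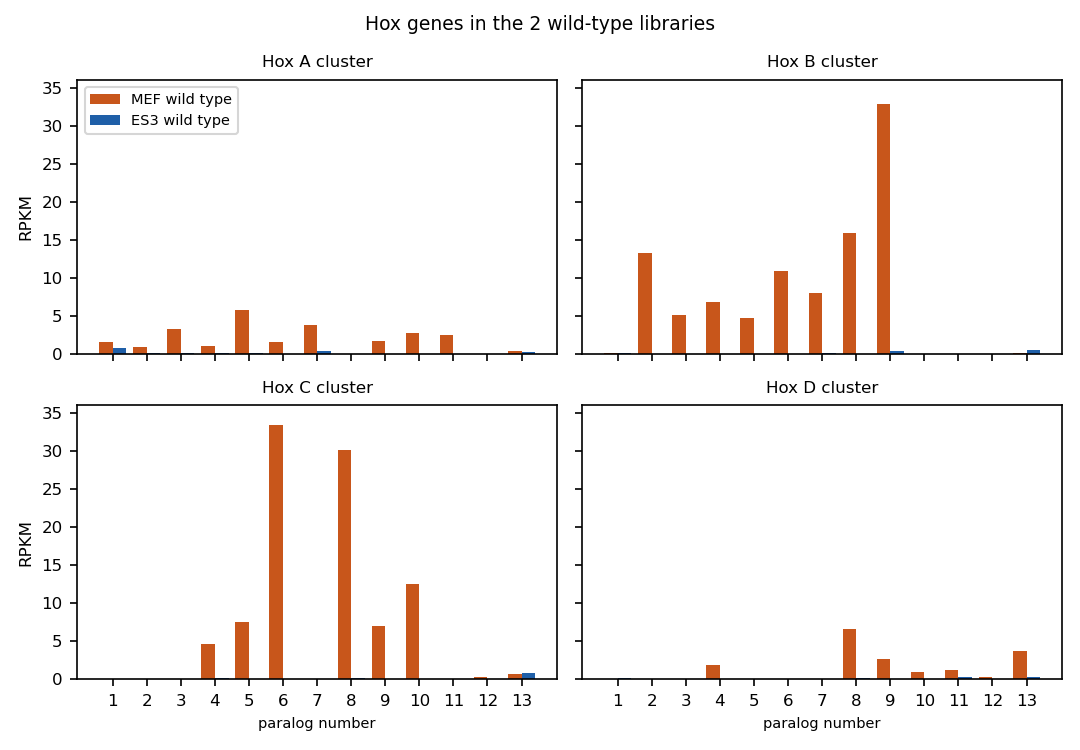
RPKM (y axis) of Hox genes by paralog number (x axis) in the 4 clusters, in wild-type MEFs (orange bars) and wild-type ES3 cells (blue bars), 1 library each. Levels in MEFs are highest for Hoxc6, Hoxb9 and Hoxc8, and ES3 bars stay under 1 RPKM; a position without a bar is a gene near 0 or one not in the tables.

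Of 41 genes of the TRIM28 and H3K9 methylation machinery, 11 were ES-high, 1 MEF-high and 28 within 25 points, with a median of 7.68 points; 39 reached 1 RPKM in both. TRIM28 partners were present in both cell types. Setdb1, the H3K9 methyltransferase that TRIM28 recruits, was ES-high (12.9 against 2.81 RPKM, 34.8 points). Of the HP1 genes, whose products bind H3K9me3, Cbx1 was ES-high (88.2 against 11.6 RPKM, 30.5 points), and Cbx3 (25.4 against 16.2 RPKM, 6.61 points) and Cbx5 (13.6 against 6.39 RPKM, 16.7 points) were within 25 points. Among zinc finger proteins that bring TRIM28 to DNA, the imprint guardian Zfp57 was ES-high (52.9 against 3.47 RPKM, 56.1 points) and the retrovirus silencer Zfp809 was within 25 points (4.07 against 3.16 RPKM, 4.94 points). The remodeller Hells (48.6 against 3.36 RPKM, 55.97 points), the H3K9 demethylase genes Kdm3a (17.8 against 3.25 RPKM, 39.1 points) and Kdm4c (13.01 against 2.81 RPKM, 35.02 points), and the histone chaperone subunit gene Chaf1b (45.1 against 6.02 RPKM, 40.8 points) were ES-high. Chd3, a remodeller of the NuRD complex, was the MEF-high gene (2.67 against 46.3 RPKM, −61.4 points), while its paralog Chd4 was within 25 points (112 against 65.6 RPKM, 3.05 points).

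DNA methylation genes had 9 of 17 ES-high and 3 MEF-high, with a median of 18.1 points. Of the 9 at 1 RPKM or more in both, 3 were ES-high and 2 MEF-high, and the median had the other sign, −8.31 points. The de novo methyltransferase gene Dnmt3b (27.4 against 0.0663 RPKM), its cofactor Dnmt3l, the oxidising enzymes Tet1 (35.2 against 0.115 RPKM) and Tet2 (23.9 against 0.815 RPKM) and the maintenance cofactor Uhrf1 (48.8 against 2.80 RPKM) were ES-high. Dnmt3a was just ES-high (7.55 against 2.12 RPKM, 26.5 points), and Dnmt1 was within 25 points (107 against 20.4 RPKM, 18.8 points). Dnmt3l made up 89.1% of the summed Dnmt3 genes in ES3 cells and Dnmt3a 95.5% in MEFs, where the sum was 2.22 RPKM against 320.8 RPKM. The methyl-CpG readers Mbd2 (4.66 against 32.9 RPKM) and Zbtb4 (0.213 against 12.6 RPKM) and the Uhrf1 paralog Uhrf2 (6.73 against 17.6 RPKM) were MEF-high.

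Polycomb proteins form PRC2, which methylates H3K27, and PRC1, which binds and ubiquitinates chromatin. Of 31 genes 13 were ES-high and 5 MEF-high, with a median of 9.44 points and 12 and 2 of the 26 at 1 RPKM or more in both. Of PRC2 genes, the catalytic gene Ezh2 (28.3 against 4.81 RPKM), Suz12 (26.03 against 4.70 RPKM) and the accessory genes Jarid2 (132 against 2.45 RPKM), Mtf2 (35.2 against 3.08 RPKM) and Phf19 (6.03 against 1.38 RPKM) were ES-high. The core gene Eed (95.6 against 25.1 RPKM, 14.1 points), the second catalytic gene Ezh1 (4.65 against 2.30 RPKM, 13.8 points), and Aebp2, Rbbp4, Rbbp7 and Phf1 were within 25 points. In PRC1 the leading member of several subunit families differed. Cbx7 (108 against 0.254 RPKM) made up 78.1% of the 5 chromodomain CBX genes in ES3 cells and 0.956% in MEFs, where Cbx6 made up 62.3% and Cbx8 17.2%. Phc1 (128 against 3.61 RPKM) made up 93.3% of the PHC genes in ES3 cells and Phc2 (8.71 against 43.2 RPKM) 90.02% in MEFs. Of the PCGF subunits, Pcgf6 and Pcgf2 led in ES3 cells with 36.2% and 31.6%, and Pcgf3 and Bmi1 in MEFs with 53.8% and 14.5%. These families were chosen after their values were seen, and shares within a library do not depend on how the tables were scaled.

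**Figure D5:**
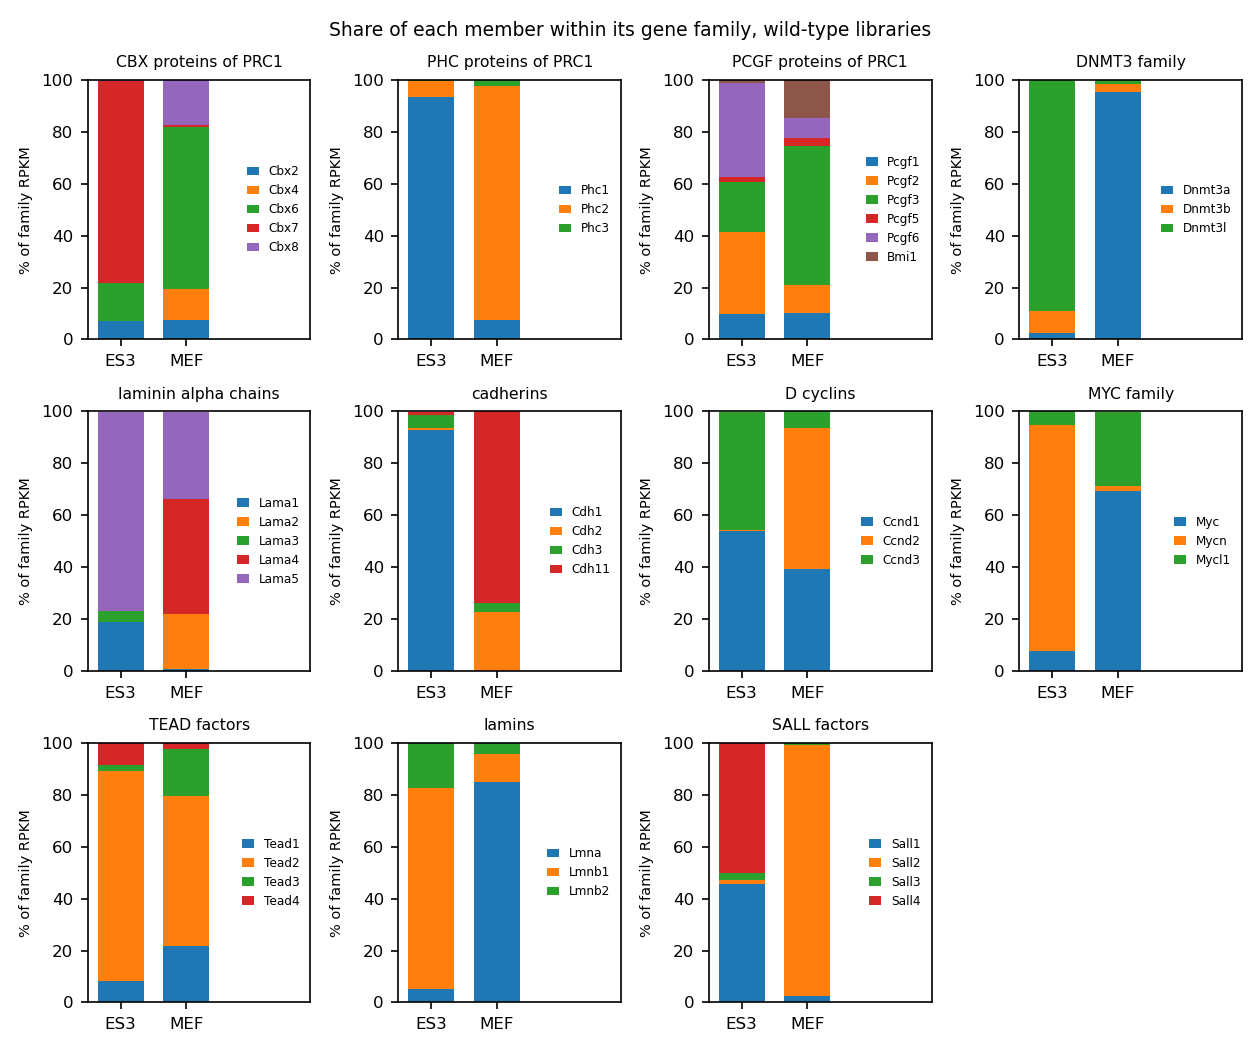
Share of each member in the summed RPKM of its gene family (y axis, percent) in wild-type ES3 cells and wild-type MEFs (x axis), 1 library each. The leading member differs between the libraries for the CBX, PHC, PCGF, DNMT3, laminin, cadherin, cyclin D, MYC, lamin and SALL genes, and Tead2 leads the TEAD factors in both.

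Replication genes leaned to ES3 cells as a set: of 48, 30 were ES-high and none MEF-high, with a median of 23.6 points, and 28 of the 45 at 1 RPKM or more in both were ES-high. The origin genes Orc1l (30.6 against 1.28 RPKM) and Mcm10 (38.8 against 2.10 RPKM), the repair genes Fancd2 (17.9 against 0.955 RPKM) and Brca1 (16.6 against 1.17 RPKM) and the clamp loader Rfc5 (96.8 against 5.18 RPKM) were among those with the widest differences. Pcna (164 against 49.96 RPKM, 7.21 points), Rrm2 (148 against 36.5 RPKM, 10.4 points) and the helicase subunit Mcm7 (249 against 30.8 RPKM, 14.4 points) were within 25 points. Cyclins and mitotic genes had 11 of 32 ES-high and 1 MEF-high, with 10 and 0 of the 28 at 1 RPKM or more in both. The exception was Ccnd2, a D-type cyclin (0.629 against 214 RPKM, −89.7 points), and the D cyclins accordingly differed in makeup: Ccnd1 and Ccnd3 made up 53.8% and 45.7% in ES3 cells, and Ccnd2 and Ccnd1 54.2% and 39.3% in MEFs. Ccnb1 (54.8 against 5.27 RPKM), Kif11 (28.9 against 3.93 RPKM) and Bub1 (10.5 against 1.36 RPKM) were ES-high. Of 34 Cdk inhibitors, p53 targets and senescence-linked genes none was ES-high and 8 were MEF-high, with a median of −8.19 points and 5 of the 28 at 1 RPKM or more in both MEF-high. Cdkn2a (6.66 against 166 RPKM) and Cdkn2b (1.02 against 54.6 RPKM), neighbouring inhibitor genes known to accumulate in cultured fibroblasts, and Gadd45g (8.62 against 139.8 RPKM) were among the 8. The p53 target Cdkn1a stood at 29.7 against 175 RPKM, −16.4 points.

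In metabolism, mouse ES cells are known to depend on threonine catabolism. Several genes of that route and of glycine use were ES-high: Tdh, the glycine cleavage genes Gldc (88.9 against 0.160 RPKM) and Amt (66.4 against 0.861 RPKM), and Shmt1 (96.1 against 3.87 RPKM). Serine synthesis was not, with Phgdh at 36.4 against 47.8 RPKM, −4.86 points and Psat1 at 57.01 against 57.9 RPKM, −0.966 points. Of 23 genes of this list 7 were ES-high, and the mitochondrial folate gene Aldh1l2 was MEF-high (0.179 against 9.94 RPKM). Of the 18 at 1 RPKM or more in both, 4 were ES-high. Of 24 glycolysis genes 5 were ES-high, 1 MEF-high and 18 within 25 points, with 3 and 1 called of the 22 at 1 RPKM or more in both. The neuronal-type glucose transporter Slc2a3 stood at 219.8 against 0.769 RPKM and Slc2a1 at 241 against 55.8 RPKM. Pdk1 (37.97 against 1.90 RPKM), which restrains pyruvate entry into mitochondria, Aldoc (15.95 against 0.303 RPKM) and the lactate carrier Slc16a1 (28.8 against 3.42 RPKM) were ES-high, and Eno2 was MEF-high (1.12 against 8.38 RPKM).

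Ribosomal protein genes ranked at the top of both libraries, with 76 of 77 measured members within 25 points and a median of 0.740 points. Their share of RPKM was 9.38% in ES3 cells and 5.71% in MEFs. The exception was Rpl39l, a paralog of Rpl39 (2.06 against 14.1 RPKM, −45.4 points); ribosomal protein genes have many near-identical copies, so single values are uncertain. Of 27 housekeeping genes 23 were within 25 points, Tfrc was ES-high (70.8 against 11.1 RPKM, 29.9 points), and 3 genes were MEF-high, among them Gusb (9.08 against 31.4 RPKM, −29.04 points) and Reep5 (4.18 against 54.9 RPKM, −53.95 points).

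Chromatin of wild-type ES3 cells cultured for 4 days, from ChIP for H3K9me3 and for KAP1, gave a readout that the ranks did not use. A wild-type H3K9me3 region lay within 20 kb of the start of 23.4% of ES-high genes (400 of 1709; exact 95% binomial interval 21.4 to 25.5%), 20.1% of MEF-high genes (361 of 1798; 18.2 to 22.01%) and 20.2% of the other genes (1760 of 8707; 19.4 to 21.1%). A KAP1 peak called over input lay within 20 kb of 7.72% of ES-high (6.50 to 9.09%), 6.23% of MEF-high (5.16 to 7.45%) and 6.93% of the other genes (6.40 to 7.48%). The ES-high share exceeded the MEF-high share by 3.33 percentage points for H3K9me3 (95% interval 0.597 to 6.06) and by 1.49 for KAP1 (−0.194 to 3.18); for KAP1 peaks called over the knockout the difference was 1.67 (0.259 to 3.07). These intervals cover counting error only, and genes are not replicates. At 50 kb and 100 kb the KAP1 shares were 19.02% and 33.002% for ES-high and 14.3% and 26.5% for MEF-high genes, and the H3K9me3 shares 45.5% and 68.3% against 43.5% and 66.4%. There the KAP1 differences were 4.72 (2.26 to 7.19) and 6.53 points (3.51 to 9.55), and the H3K9me3 differences 1.98 (−1.32 to 5.27) and 1.99 (−1.11 to 5.10), so which interval includes 0 depends on the window. Among genes at 50 RPKM or more in the higher library, those with an H3K9me3 region within 20 kb included the ES-high Dppa5a, Dnmt3l, Esrrb and Cbx7 and the MEF-high Ankrd1, Anxa2, Cd44 and Igfbp7, named here after their values were seen.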

How the data were processed

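Gene lists, members and thresholds were chosen with earlier results of these data known, and the gene families after their values were seen. RNA was sequenced from 1 library of wild-type ES3 cells and 1 of wild-type MEFs, each from pooled duplicates per the labels' protocols. The authors deposited RPKM values in 1 table per cell type (22631 and 22630 transcripts); Bowtie and mm9 are named per the submitters' processing notes, and for the read counter, strandedness and the scaling total, nothing is stated in the labels. Overlapping and near-identical genes are therefore uncertain. The authors also deposited a knockout over wild-type ratio, which was not used. For chromatin, the authors deposited H3K9me3 regions without values and KAP1 peaks with a score, which was not used.

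Tables were joined on the RefSeq transcript (22630 shared) and each symbol kept its transcript of highest mean RPKM. Blank, date-like or differing symbols (779, 40 and 117) took the reference symbol of their transcript where there was one; 107 measured genes carry a symbol that differs from the reference. Ranks were taken within each library (pandas 2.3.3, SciPy 1.17.1). The ranking code was run on simulated data as a check of the code alone. Without replicate libraries that run cannot show how many ES-high or MEF-high calls are wrong, and no conclusion is drawn from it. Named genes were Trim28, the 15 widest differences per direction at 5 RPKM or more, the 10 highest per library, up to 6 members per list with the widest differences, and members needed to describe a role; a few genes under this rule are not reported here. 43 lists were used. Promoters matched 78.9% of measured genes, under the 80% set for a check over all genes, so promoter content was described for the cytoskeleton list alone.

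Depth is unknown. Of 85 low non-zero values of transcripts up to 200 bases in ES3 cells, 36 were whole multiples, within 0.02, of 38.5 RPKM times bases; 17 of 80 were so for 36.8 in MEFs. Most values were not whole, so read numbers were not inferred.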

Additional observations from a re-analysis of the deposited data

How the results depend on the processing

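No paired analysis was possible because each cell type is 1 library. Genes higher in rank in ES3 cells numbered 1709 and in MEFs 1798. A threshold of 15 points gave 3184 and 2877, and 40 points gave 616 and 916. Log2 ratios called at 4-fold gave 1115 in ES3 cells as deposited, 824 after centring, and 404 and 545 with a pseudocount of 5 RPKM. No filter, 5 RPKM in either, 1 RPKM in both, all transcripts, a pseudocount of 0.1 RPKM and the knockout libraries in place of the wild types kept both counts within 1.5 times. The difference in KAP1 peaks between ES-high and MEF-high genes was 1.49 percentage points at 20 kb, 4.72 at 50 kb and 6.53 at 100 kb; the cause was not tested. Of 43 list medians on ranks among the 12214 measured genes, 12 were past 25 points. Ranks were taken anew under each filter here, so a median can differ from the one given above for the same genes. Of the 12 lists, 1 turned: DNA methylation genes, from 26.5 to −11.3 points among genes at 1 RPKM or more in both. There Dnmt3l, Dnmt3b, Tet1 and Tet2 drop out. List medians that came under the threshold numbered 3 without a filter, 2 with 5 RPKM in either, 2 with 1 RPKM in both, 3 on log2 ratios, 1 on centred log2 ratios and 2 with the knockout libraries. With 1 RPKM in both these were the TGF-beta list (−60.7 to −20.7 points) and the epithelial list (51.5 to 17.1 points). Other list medians newly passed the threshold, 7 of them with 5 RPKM in either. The numbers were 1 on log2 ratios, 2 on centred log2 ratios and 1 with the knockout libraries. Over all lists and alternatives 20 medians had the other sign; 19 of these were of lists under 25 points, such as Wnt (8.02 points with 1 RPKM in both), so the sign of a small list median is not stable. One library per cell type, unknown depth, rank saturation above about 100 RPKM and the difference of 1 day in culture limit every comparison.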

Other observations

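Imprinted genes, expressed from 1 parental copy, went both ways. Of 47 in the tables, 41 were measured, 9 of them ES-high and 8 MEF-high, with a median of −2.66 points, and 5 and 3 of the 23 at 1 RPKM or more in both. Phlda2, a brake on placental growth, stood at 84.96 against 0.250 RPKM, Mest at 33.5 against 1.82 RPKM and Gab1 at 68.2 against 5.29 RPKM. The growth factor gene Igf2 (0.793 against 18.9 RPKM), the growth-restraining adaptor Grb10 (0.908 against 77.2 RPKM), Osbpl5 (0.656 against 47.4 RPKM) and Ndn (4.99 against 58.5 RPKM) were higher in MEFs. Neighbours within a domain could differ in direction: Grb10 and Cobl (29.4 against 3.91 RPKM), or Phlda2 and Osbpl5. Of 42 germline genes known to be silenced by promoter methylation, 24 were under 1 RPKM in both libraries, 8 were ES-high and none was MEF-high. All 8 were measured through ES3 cells alone, which fixed their direction, and the 1 member at 1 RPKM or more in both was not called. Tex19.1 (44.8 against 0 RPKM), the helicase gene D1Pas1 (10.7 against 0.437 RPKM) and the piRNA pathway genes Tdrd12 (7.60 against 0 RPKM) and Mael (6.18 against 0 RPKM) had the widest differences. Among 326 Zfp genes, 47 were ES-high and 10 MEF-high of 265 measured, and 61 were under 1 RPKM in both. Of the 181 at 1 RPKM or more in both, 28 were ES-high and 6 MEF-high, where the shares over all genes were 11.4% and 11.3%.

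Of 31 chemokine and inflammatory genes 20 were measured. None was ES-high and 10 were MEF-high, but 9 of these 10 were measured through MEFs alone, which fixed their direction. Of the 5 at 1 RPKM or more in both libraries 1 was MEF-high. MEF-high members included Ccl2 (0 against 41.3 RPKM), Ccl7 (0 against 31.3 RPKM), Cxcl12 (0.123 against 71.7 RPKM), Csf1 (0.0312 against 88.5 RPKM) and the prostaglandin synthase Ptgs2 (0.223 against 105 RPKM). The summed RPKM of the list was higher in ES3 cells, 1631 against 649.5 RPKM, with the metallothioneins Mt1 at 855 against 163 RPKM and Mt2 at 764 against 28.3 RPKM. Of 53 antigen-processing and interferon genes 40 were measured, 11 of them MEF-high and 2 ES-high, with 6 and 2 of the 28 at 1 RPKM or more in both. MEF-high genes included beta-2 microglobulin (B2m) at 11.2 against 297 RPKM and the interferon-gamma receptor genes Ifngr1 at 1.25 against 16.4 RPKM and Ifngr2 at 1.89 against 48.4 RPKM. Ifitm1 was ES-high (61.1 against 2.87 RPKM), whereas Ifitm2 (109 against 124 RPKM, −0.933 points) and Ifitm3 (232 against 163 RPKM, 0.802 points) were within 25 points. Of 60 histone genes 55 were measured, 10 of them ES-high, 14 MEF-high and 31 within 25 points. Of the 39 at 1 RPKM or more in both, 10 were ES-high and 9 MEF-high. The MEF-high genes included the linker histone gene Hist1h1c (0.537 against 46.4 RPKM) and 10 Hist1 H2B genes, and the ES-high genes included 7 Hist1 H2A genes. Copies are nearly identical and single values uncertain.

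Single genes of other cell types, chosen after their values were seen, were high although their lists went both ways. In ES3 cells the neural genes Olig2 (32.9 against 0.0216 RPKM) and Stmn2 (88.9 against 1.74 RPKM), the skeletal muscle light chain gene Mylpf (70.2 against 0.293 RPKM) and the lipid carrier gene Apoe (945 against 24.2 RPKM) were high. The neural list had 7 ES-high and 3 MEF-high genes of 15 measured, Nes among the latter (1.07 against 42.6 RPKM), and the muscle list 2 and 2 of 6. The primitive endoderm list, which holds Apoe, had 2 ES-high and 6 MEF-high genes of 15. At 1 RPKM or more in both libraries these counts were 1 and 1 of 3, 0 and 1 of 3, and 1 and 2 of 8. The endothelial list had 4 ES-high genes, such as Pecam1 (9.28 against 0.0113 RPKM), and 2 MEF-high genes, Flt1 (0.0858 against 18.7 RPKM) and Flt4 (0.697 against 11.4 RPKM), of 12. All 12 were measured through 1 library alone, which fixed their direction. Xist, the noncoding RNA of X inactivation, stood at 0.216 against 10.8 RPKM. Tsix overlaps it on the other strand, and without strand information their reads cannot be told apart.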
